A study of Mus musculus with 9 samples.

Results

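The genes described here encode mitochondrial ribosomal proteins, the Mrpl proteins of the large and the Mrps proteins of the small subunit of the ribosome inside mitochondria. The rule took every gene whose annotated symbol begins with Mrpl or Mrps followed by a digit, and 76 of the 18193 genes measured were found. It uses names and no values, but it was chosen with earlier results of these data known. The study compared 3 kinds of mouse heart tissue at 2 months of age on a C57BL/6 background, with 3 Affymetrix arrays per kind. Mutant right atria had the genotype Myh6-cre; COUP-TFIIflox/flox, in which Cre driven by the cardiomyocyte promoter Myh6 deletes the floxed nuclear receptor gene Nr2f2, whose product is COUP-TFII. Control ventricles and control right atria both had the genotype COUP-TFIIflox/flox, so all 3 groups carry the floxed alleles and the mutants alone carry Cre. An effect of Cre itself therefore cannot be told apart from the loss of the receptor. The labels call the replicates biological but do not say whether an array holds 1 animal or several.

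The mitochondrial ribosome translates the few messenger RNAs transcribed from mitochondrial DNA, which all encode core subunits of the respiratory chain and the ATP synthase. Its RNAs come from the mitochondrial genome, whereas its proteins are encoded in the nucleus, made in the cytosol and imported. Some of the proteins descend from bacterial ribosomal proteins and others were added in the mitochondrial lineage, and the heart, a tissue with dense mitochondria, depends strongly on the respiratory chain that this ribosome helps to build.

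Of the 76 genes, 49 encode proteins of the large subunit, 29 of them homologues of bacterial ribosomal proteins and 20 specific to mitochondria. Another 26 encode proteins of the small subunit, 16 homologous to bacterial proteins and 10 specific to mitochondria. Despite their names, Mrps30 and Mrps18a are placed in the large subunit, as they are in ribosome structures, and Mrps36 is now assigned to the 2-oxoglutarate dehydrogenase complex rather than the ribosome. A further 2 genes that carry such names, Mrpl30 and Mrpl53, share their probe sets with another gene and were not analysed here. No filter on low values was applied, so all 76 genes entered every count.

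The promoters of 4 of these genes are shown. Mrps18a was raised most in ventricles, Mrpl36 rose most in mutant atria, and Mrps6 was the 1 gene lower in ventricles than in control atria. Mrpl45 was picked partly for its motif. It had the largest ventricle ratio among genes with 1 promoter window and a match to the motif of NRF1 before the start. That it holds such a match is therefore no result. Each line gives the 250 bases before the annotated start on the + strand of GRCm38.p6, taken from RefSeq. The windows are chr17:46110754-46111003 for Mrps18a, chr11:97315466-97315715 for Mrpl45, chr13:73330759-73331008 for Mrpl36 and chr16:92058086-92058335 for Mrps6. Capitals mark matches, on either strand, to motifs of regulators of mitochondrial genes. In Mrps18a they mark CCGGAAG, the core bound by GABPA and other ETS factors, and in Mrpl45 a pair of matches to the motif of NRF1, GCGCA and GCGC with any 1 base between them. In Mrpl36 they mark AAGGTCA, the core site of the oestrogen-related receptors, read on the other strand, followed by AANATGGCG, the motif of YY1, also on the other strand. The Mrps6 window shown holds none of the motifs searched.
Mrps18a: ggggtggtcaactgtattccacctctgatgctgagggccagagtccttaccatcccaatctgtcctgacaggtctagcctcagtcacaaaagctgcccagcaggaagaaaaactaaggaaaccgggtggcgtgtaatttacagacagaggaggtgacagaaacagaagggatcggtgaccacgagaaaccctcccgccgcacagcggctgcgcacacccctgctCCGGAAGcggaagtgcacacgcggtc
Mrpl45: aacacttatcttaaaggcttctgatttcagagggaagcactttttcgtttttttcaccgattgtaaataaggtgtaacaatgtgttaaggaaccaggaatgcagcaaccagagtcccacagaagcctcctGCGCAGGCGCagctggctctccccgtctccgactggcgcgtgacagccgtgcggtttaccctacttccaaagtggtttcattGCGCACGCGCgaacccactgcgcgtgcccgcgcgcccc
Mrpl36: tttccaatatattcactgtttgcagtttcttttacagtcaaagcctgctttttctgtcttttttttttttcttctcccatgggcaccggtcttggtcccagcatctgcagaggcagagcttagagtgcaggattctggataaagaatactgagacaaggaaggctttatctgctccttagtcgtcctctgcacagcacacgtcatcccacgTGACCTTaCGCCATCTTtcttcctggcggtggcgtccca
Mrps6: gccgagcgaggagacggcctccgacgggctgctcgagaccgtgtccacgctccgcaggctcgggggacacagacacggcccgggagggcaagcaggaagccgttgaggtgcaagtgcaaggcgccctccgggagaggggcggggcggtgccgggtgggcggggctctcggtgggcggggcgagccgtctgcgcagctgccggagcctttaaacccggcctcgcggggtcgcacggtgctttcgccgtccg

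RefSeq windows from 250 bases before to 50 bases after a start were given for 67 of the 76 genes, 73 windows in all, and were searched on both strands for these letters. The ETS core was found in 25 windows, 34.2%, against 8.86% of all 32851 windows and 11.6% of the 21262 windows of protein-coding genes. The NRF1 motif was found in 12 windows, 16.4%, against 4.60% of all windows and 6.38% of those of protein-coding genes. The YY1 motif was found in 11 windows, 15.1%, against 2.38% and 3.12%. The oestrogen-related receptor core site was found in 4 windows, 5.48%, against 4.72% and 4.08%. A direct repeat of the kind bound by COUP-TF, 2 copies of AGGTCA with any 1 base between them, can overlap the receptor core site. This repeat was found in 0 of the 73 windows, against 13 of all windows, 0.0396%, and 0.0470% of those of protein-coding genes. With a match so rare, 0 in 73 windows cannot set these promoters apart from others. These are matches of letters and not sites of binding. The log2 ratio of ventricle over control atrium had a median of 0.61 over the 12 genes with an NRF1 match and 0.54 over the other genes with a window. It was 0.50 with and 0.58 without an ETS match, 0.52 with and 0.55 without a YY1 match, and 0.62 over the 4 genes with a receptor core site against 0.55 over the others.

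Each value below is the log2 of the deposited RMA intensity of 1 probe set per gene. Ratios are differences of group means on that log2 scale, given ± SE from 1 limma model that holds all 9 arrays, and a gene is said to have risen or fallen where its Benjamini-Hochberg adjusted p over all 18193 genes was below 0.05. The arrays had median intensities of 80.9 to 83.4. Nr2f2 itself stood at 6.82, 6.62 and 6.82 in mutant atria, 5.96, 5.34 and 5.74 in ventricles and 7.53, 7.66 and 7.29 in control atria, and was lower in mutant than in control atria by a log2 ratio of -0.74 ± 0.15 (adjusted p = 0.0109). General cardiomyocyte transcripts were abundant in all groups, with a mean over 10 markers of 14.06 to 14.12 in mutant atria, 14.18 to 14.25 in ventricles and 13.99 to 14.10 in control atria. Many of these probe sets lie near the top of the arrays' range, so their mean is no measure of stability, and 1 of the 10 (Mybpc3, by 0.51) rose in mutant over control atria and 2 (Ckm by 0.81 and Mybpc3 by 0.59) rose in ventricles. In ventricles against control atria all 11 atrial muscle markers fell, 8 of 10 ventricular markers rose, 6 of 8 fibroblast markers fell and 1 rose (median -0.61), and 5 of 8 endothelial markers fell and 1 rose (median -0.81). In mutant against control atria 6 of 11 atrial muscle markers fell (median -0.86), 7 of 10 ventricular markers rose and 1 fell (median 1.09), and 5 of 9 macrophage markers rose and 0 fell (median 0.60). Their part in the results below was not tested. The control atria stood apart from both other groups in hepatocyte transcripts, mesothelial transcripts and a sign of RNA quality. The mean over 10 hepatocyte transcripts lay at 5.51 to 5.56 (mutant atria) and 5.32 to 5.42 (ventricles), but 10.27, 9.49 and 7.68 in control atria 1, 2 and 3. The mean over 10 mesothelial markers was 7.86 to 7.97 in mutant atria, 6.63 to 6.94 in ventricles and 9.22 to 9.50 in control atria. For Gapdh, the 3' control probe set exceeded the 5' one, which reflects RNA quality, by a log2 difference of 0.214 to 0.304 in mutant atria, 0.153 to 0.227 in ventricles and 0.345 to 0.364 in control atria. The mean over 3 Y-linked genes was 3.73, 8.84 and 8.84 in mutant atria, 3.78 to 3.85 in ventricles and 5.22, 8.81 and 8.33 in control atria, so these levels differed within and between groups. The part of RNA quality and of mesothelial transcripts in the results below was not tested. For hepatocyte and Y-linked transcripts, values with a covariate or without arrays stand beside the results.

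The mitoribosomal transcripts as a set were highest in ventricles and only slightly above control atria in mutant atria. The mean log2 level over the 76 genes was 10.30, 10.35 and 10.29 (mutant atria), 10.81, 10.81 and 10.79 (ventricles) and 10.20, 10.25 and 10.20 (control atria). The 3 groups did not overlap on this measure. Each gene was then set against its own control atrium mean. The median over the members was 0.073, 0.125 and 0.051 in the mutants and 0.595, 0.576 and 0.534 in the ventricles. Over all genes it was 0.030, 0.016 and 0.025 in the mutants and 0.072, 0.055 and 0.057 in the ventricles. For the members the control arrays themselves lay between -0.020 and 0.036. In each of the 3 ventricles 75 of 76 genes stood above the control atrium mean. In the mutants this held for 57, 60 and 52 genes, whereas 30, 58 and 29 genes stood above it in the control atria themselves. By group means, 58 of the 76 genes stood above the control atria in mutants and 75 in ventricles. Of all 18193 genes 10075 did so in mutants and 10632 in ventricles. Arrays of 1 group were close for nearly every gene, with a median SD over genes of 0.069 in mutant atria, 0.055 in ventricles and 0.063 in control atria.

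**Figure D1:**
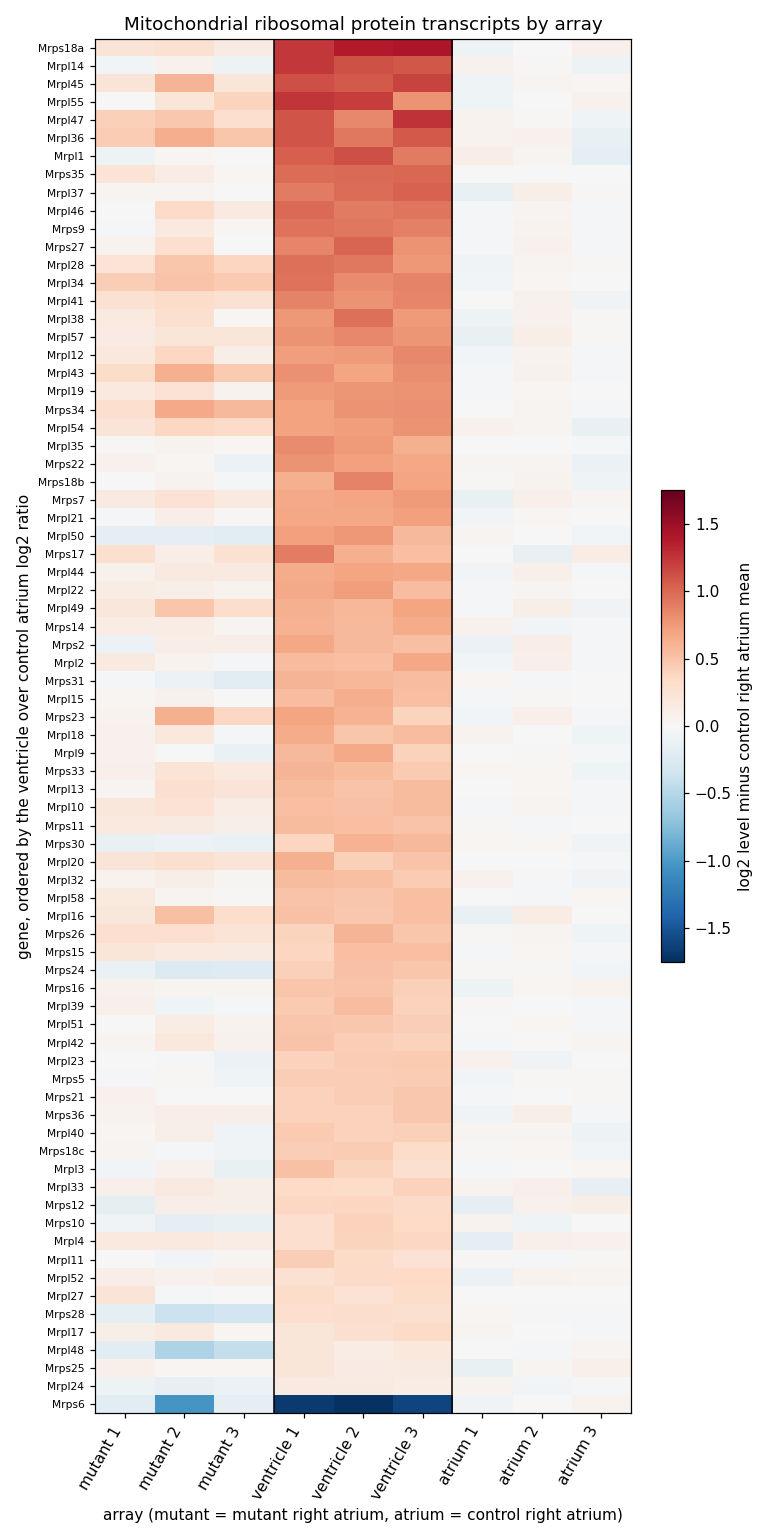
Log2 level of each of the 76 genes (rows) on each of the 9 arrays (columns) minus the mean of the 3 control right atria, with red higher and blue lower. Ventricle columns are red in every row but that of Mrps6, and mutant columns are mostly pale.

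The comparison of control ventricles with control right atria asks how the chambers of a normal heart differ. Transcripts of the mitochondrial ribosome were higher in the ventricles almost throughout. Of the 76 genes, 72 rose, 1 fell and 3 did not pass, where 29.2% of all genes tested rose and 23.6% fell. The median log2 ratio was 0.563, which is 1.48-fold, against 0.071 over all genes, and the quartiles of the members were 0.44 and 0.77. A log2 ratio above 0.5 was seen for 49 members, 7 of them above 1, against 9.79% of all genes above 0.5. In 75 of the 76 genes every ventricle stood above every control atrium, as in 33% of all genes, and in Mrps6 every ventricle stood below, as in 26.7%. In bulk tissue fewer cells of a type and less RNA per cell cannot be told apart, here and in the comparisons that follow. Both subunits took part: 47 of 49 large-subunit genes rose and 0 fell, with a median of 0.59, and 24 of 26 small-subunit genes rose and 1 fell, with a median of 0.53. Genes with a bacterial homologue rose in 43 of 45 cases with a median of 0.53, and genes specific to mitochondria in 28 of 30 with a median of 0.68. The difference between these subsets was not tested.

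**Figure D2:**
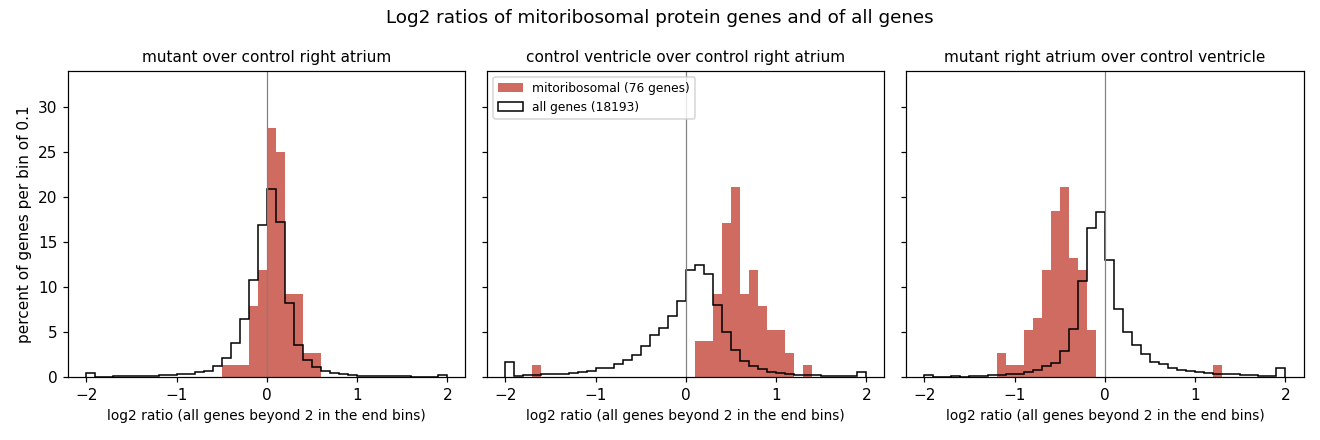
Percent of genes in each 0.1-wide bin of the log2 ratio, for the 76 mitoribosomal genes (filled) and all 18193 genes (outline), in each comparison. The filled bars sit mostly between 0 and 0.5 for mutant over control atria, to the right of 0 for ventricle over control atria and to the left of 0 for mutant atria over ventricles.

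The largest rise was that of Mrps18a, one of a family of proteins related to bacterial S18. In the counts above Mrps18a and Mrps18b stand among the genes specific to mitochondria, and Mrps18c among those with a bacterial homologue. Mrps18a stood at 11.14, 11.29 and 11.31 in ventricles, against 9.81, 9.90 and 9.99 in control atria. The ventricles were all well above the atria, by a log2 ratio of 1.35 ± 0.08 or 2.54-fold (adjusted p = 1.13e-06). Mrpl14, a conserved protein on the face of the large subunit that meets the small one and the partner of the assembly factor Malsu1 in human cells, was at 10.43, 10.30 and 10.28 in ventricles, against 9.27, 9.21 and 9.10 in control atria. The groups were again far apart, 1.15 ± 0.07 or 2.21-fold (adjusted p = 2.68e-06). Mrpl45, which lies near the exit tunnel and anchors the ribosome to the inner membrane, was at 10.54, 10.50 and 10.61 in ventricles, against 9.35, 9.46 and 9.45 in control atria, a log2 ratio of 1.13 ± 0.10 (adjusted p = 1.9e-05). It was 2.19-fold higher with no overlap between arrays.

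Another 4 genes at least doubled. Mrpl55, a large-subunit protein, gave 1.08 ± 0.13 (adjusted p = 0.000136), with ventricles at 10.69, 10.66 and 10.23, against 9.36, 9.45 and 9.51 in control atria. The third ventricle was lower than the other two but still above all control atria. Mrpl47, the relative of bacterial L29 at the exit tunnel, gave 1.07 ± 0.11 (adjusted p = 3.72e-05). Mrpl36, a small zinc-binding protein of the large subunit, stood at 9.75, 9.57 and 9.71 in ventricles, against 8.70, 8.72 and 8.51 in control atria, a ratio of 1.03 ± 0.08 (adjusted p = 1.05e-05). Mrpl1, a component of the mobile L1 stalk beside the exit site for transfer RNA, stood at 9.34, 9.43 and 9.22 in ventricles, against 8.42, 8.35 and 8.14 in control atria, a ratio of 1.03 ± 0.09 (adjusted p = 1.48e-05). For both, all ventricles were above all control atria. Among small-subunit genes the mitochondria-specific Mrps35 rose most, by 0.99 ± 0.06 (adjusted p = 2.68e-06).

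Genes tied to heart disease or to particular steps of translation rose as well. Mutations of MRPL3, MRPL44 and MRPS22 have been found in people with infantile cardiomyopathy. The mouse gene Mrpl3 gave a log2 ratio of 0.40 ± 0.08 (adjusted p = 0.0025), Mrpl44 gave 0.67 ± 0.06 (adjusted p = 2.36e-05) and Mrps22 gave 0.73 ± 0.07 (adjusted p = 3.9e-05). Mrpl12, the stalk protein that recruits translation factors, gave 0.77 ± 0.08 (adjusted p = 4.12e-05), and Mrpl10, which holds it on the ribosome, 0.53 ± 0.06 (adjusted p = 7.26e-05). Mrpl58, a peptidyl-tRNA hydrolase built into the ribosome, gave 0.50 ± 0.06 (adjusted p = 0.000127).

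The probe sets with the highest and the lowest mean level of the set moved the same way. The 3 brightest were those of Mrpl42, Mrpl39 and Mrpl51, large-subunit proteins specific to mitochondria, with ratios of 0.45 ± 0.06, 0.47 ± 0.07 and 0.46 ± 0.06. The 3 dimmest were those of Mrps27, Mrpl37 and Mrpl1, and Mrps27 gave 0.89 ± 0.09 and Mrpl37 0.97 ± 0.07. Levels of different probe sets do not compare amounts of RNA, so these groups are named only to show the range of brightness. Mrps36, the protein of the 2-oxoglutarate dehydrogenase complex, gave 0.43 ± 0.06 (adjusted p = 0.000489).

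Mrps6 was the exception. This relative of bacterial S6 stood at 10.87, 10.82 and 10.93 in ventricles, against 12.48, 12.54 and 12.61 in control atria. The ventricles were all far below the atria, by -1.67 ± 0.20 or 3.18-fold (adjusted p = 0.000114), where every other member lay above 0. A second probe set of the gene gave -1.69, so the fall does not hang on 1 probe set. In the RefSeq annotation Mrps6 overlaps Slc5a3, which encodes a transporter of myo-inositol, and Slc5a3 was looked at only after these values were seen. Its probe set stood at 8.06, 8.14 and 8.02 in ventricles, against 11.31, 11.05 and 11.34 in control atria, a ratio of -3.16 ± 0.30 (adjusted p = 2.66e-05). Whether the Mrps6 probe sets also read Slc5a3 transcripts was not tested. Overlap with another protein-coding gene is annotated for 19 of the 76 members, among them Mrps18a, Mrpl14 and Mrpl48, and without the probe positions signal of the partner cannot be told apart from that of the member.

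The 3 genes that did not pass were all positive. Mrpl24, a conserved large-subunit protein, gave 0.15 ± 0.06 (adjusted p = 0.0504), the small-subunit gene Mrps25 gave 0.17 ± 0.07 (adjusted p = 0.0671) and the large-subunit gene Mrpl48 gave 0.17 ± 0.09 (adjusted p = 0.11).

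Other probe sets of the same genes mostly moved the same way in ventricles, with 3 exceptions. The 76 genes have 156 probe sets, of which 80 were not used above. Tested on their own, 47 of these 80 were higher and 4 lower in ventricles. The exceptions were Mrpl13, Mrpl15 and Mrpl52, whose probe sets passed in opposite directions. For Mrpl13 the falling probe set was dim, at a mean level of 5.27, and 3 others rose. For Mrpl15 the probe set used gave 0.57, 3 others also rose and 1 fell, by -0.24. For Mrpl52, a large-subunit protein specific to mitochondria, the used probe set gave 0.32 ± 0.07 and another, nearly as bright, gave -0.24 ± 0.08 (adjusted p = 0.0292). With the mean of all probe sets Mrpl52 gave 0.05 (adjusted p = 0.49) and Mrpl13 gave 0.20 (adjusted p = 0.066), and neither rose.

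Fewer genes were called when the hepatocyte level of each array entered the model as a covariate. Then 20 members rose in ventricles and 0 fell, with a median of 0.619 in place of 0.563, while the median SE over members was 0.182 in place of 0.070 and 6.24% of all genes were called in place of 52.8%. Mrps6 gave -1.88 and no longer passed (adjusted p = 0.0899). Without control atria 1 and 2, the ones highest in hepatocyte transcripts, the median over members was 0.581, against 0.044 over all genes. That setting was chosen after the data were seen, and the 1 control atrium left is assumed to vary like the other groups. With the Y-linked level as a covariate 70 members rose and 1 fell, with a median of 0.579, where 21.1% of all genes rose.

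Mutant and control right atria were compared to ask what follows the removal of COUP-TFII from atrial cardiomyocytes. Some mitoribosomal transcripts rose and most did not pass. Of the 76 genes 14 rose, 2 fell and 60 did not pass, where 7.76% of all genes rose and 9.79% fell. The median log2 ratio was 0.097, against 0.026 over all genes, and the ratios ran from -0.457 to 0.521, so no member changed 1.5-fold. In 30 genes every mutant array stood above every control atrium and in 7 every mutant array stood below, where each of these was true of 18.9% of all genes. The share of members that rose was thus above that of all genes and the share that fell below it, though the sizes were small. All genes include dim ones. Without the dimmest 40% of genes 15 members rose and 3 fell, where 11.7% of the 10916 genes left rose and 16.9% fell. The 14 risen genes were 12 of 49 of the large subunit and 2 of 26 of the small subunit. Among the 16 small-subunit genes with a bacterial homologue 0 rose and 1 fell at an adjusted p of 0.05 by limma. The difference between the subunits was not tested.

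The largest rise was that of Mrpl36, the zinc-binding protein, at 9.08, 9.27 and 9.13 in mutant atria, against 8.70, 8.72 and 8.51 in control atria. The mutants were all above the controls, by 0.52 ± 0.08 or 1.43-fold (adjusted p = 0.0032). Mrps34, a small-subunit protein whose loss in mice disturbs heart and liver, was at 10.92, 11.29 and 11.19 in mutant atria, against 10.61, 10.67 and 10.59 in control atria. The first mutant was the lowest of the 3 yet above all controls, and the ratio was 0.51 ± 0.09 or 1.42-fold (adjusted p = 0.00597). Mrpl43, a large-subunit protein specific to mitochondria, was at 10.28, 10.58 and 10.41 in mutant atria, against 9.92, 10.03 and 9.92 in control atria, a ratio of 0.46 ± 0.08 (adjusted p = 0.00579). Mrpl34, the relative of bacterial L34, was at 9.86, 9.92 and 9.88 in mutant atria, against 9.38, 9.47 and 9.43 in control atria, a ratio of 0.46 ± 0.06 or 1.37-fold (adjusted p = 0.00105). Neither gene had arrays that overlapped between the groups. These 4 kept their calls when any 1 array was left out.

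The next 4 rises were smaller and less steady. Mrpl47 gave 0.39 ± 0.11 (adjusted p = 0.0331), Mrpl28, the relative of bacterial L28, gave 0.37 ± 0.08 (adjusted p = 0.0151), Mrpl16, the relative of bacterial L16, gave 0.34 ± 0.09 (adjusted p = 0.034) and the membrane anchor Mrpl45 gave 0.34 ± 0.10 (adjusted p = 0.0454). Mutant 2 was the highest mutant for each of them, and without it none of the 4 passed. Leaving out any 1 mutant or control atrium ended the call of Mrpl47, and 7 of the 9 leave-outs ended that of Mrpl45. The mean of the 3 Mrpl47 probe sets gave -0.01 (adjusted p = 0.952), where a second, dimmer probe set gave -0.65 ± 0.43. The other 6 genes that rose were Mrpl49, Mrpl54, Mrpl41, Mrps26, Mrpl20 and Mrpl10. Their ratios ran down to 0.19 ± 0.06 for Mrpl10 (adjusted p = 0.0496), the protein that holds the stalk.

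The large-subunit gene Mrpl48 and the small-subunit gene Mrps28, related to bacterial S1, went the other way. Mrpl48 was at 10.52, 10.19 and 10.31 in mutant atria, against 10.71, 10.69 and 10.77 in control atria. It was lower in every mutant, by -0.39 ± 0.09 (adjusted p = 0.0146), and a second probe set also fell, by -0.54 ± 0.10 (adjusted p = 0.00636). Mrps28 was at 11.24, 11.03 and 11.07 in mutant atria, against 11.44, 11.38 and 11.38 in control atria, a ratio of -0.29 ± 0.07 (adjusted p = 0.0193). Every mutant was lower here too. Mrps6 was at 12.36, 11.50 and 12.39 in mutant atria, against 12.48, 12.54 and 12.61 in control atria. All 3 mutants were below the controls, but mutant 2 was far lower than the others and the ratio of -0.46 ± 0.20 did not pass (adjusted p = 0.145). The overlapping Slc5a3 was at 9.96, 9.11 and 10.64 in mutant atria, against 11.31, 11.05 and 11.34 in control atria, and fell by -1.33 ± 0.30 (adjusted p = 0.0157), with mutant 2 again the lowest.

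The probe sets not used above moved differently in this comparison. Tested on their own, 1 of the 80 was higher in mutant than in control atria and 5 were lower, and of the 50 brighter ones among them 1 was higher and 4 were lower. Over all 156 probe sets 13 were higher and 7 lower. Of the genes that rose, Mrpl36, Mrps34, Mrpl43, Mrpl16, Mrpl45, Mrpl20 and Mrpl10 had only 1 probe set. For these no other probe set could be compared. The other risen genes, Mrpl34 among them, had several probe sets. As only 1 of the 80 was higher, at most 1 of these genes had another probe set that also passed upwards. With the mean of all probe sets of a gene 11 members rose and 3 fell, where 7.38% of all genes rose and 8.52% fell.

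**Figure D3:**
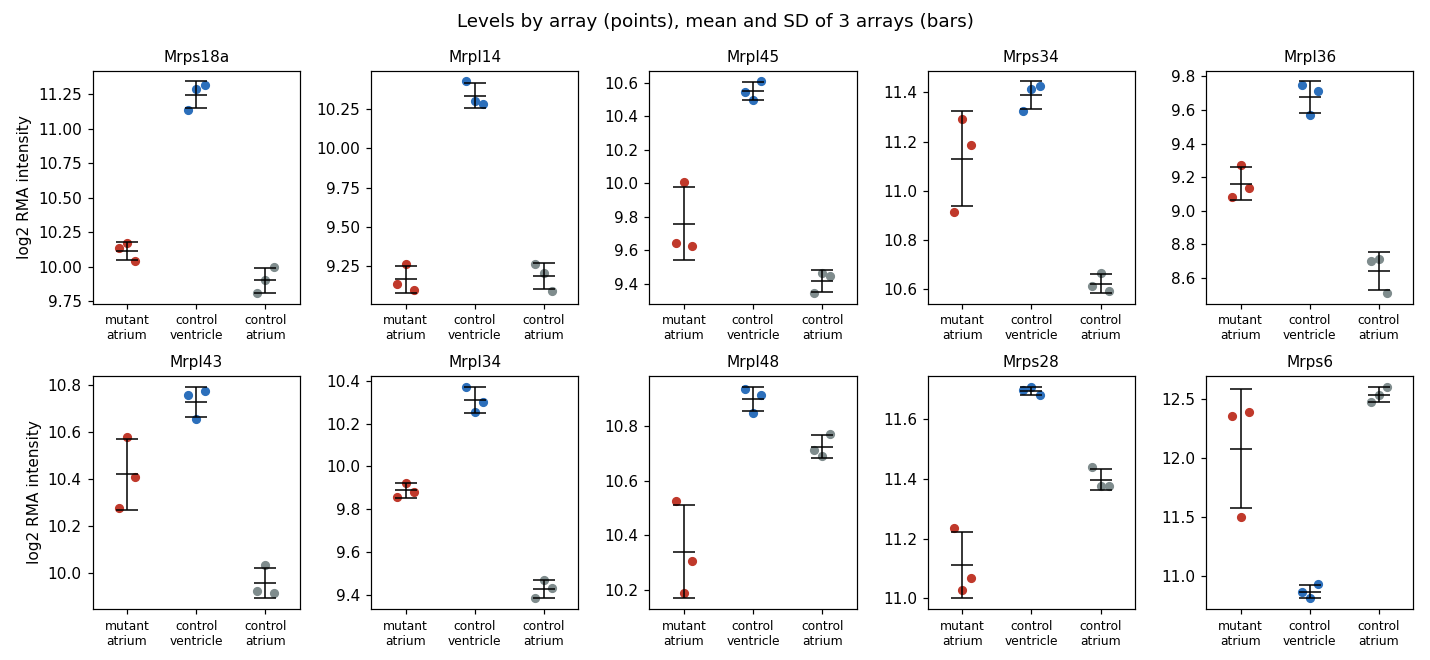
Log2 RMA intensity of 10 genes on each array (points), with the mean and SD of the 3 arrays per group (bars) and a separate vertical axis for each gene. Mrpl36, Mrpl34, Mrpl43 and Mrps34 lie higher in mutant than in control atria, Mrpl48 and Mrps28 lie lower, and Mrps6 is lowest in ventricles.

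The counts of this comparison changed when single arrays were left out and when the hepatocyte covariate entered the model. Leaving out 1 array at a time gave 5 to 12 genes that rose and 0 to 3 that fell. There were 5 and 0 without mutant 2, 7 and 0 without mutant 3, 6 and 1 without control atrium 1, 9 and 1 without control atrium 2, and 7 and 2 without control atrium 3. The share of all genes that rose was lower in these fits too, at 4.29% without mutant 2, 4.67% without mutant 3, and 4.45%, 4.96% and 7.21% without control atrium 1, 2 and 3, in place of 7.76%. Without control atria 1 and 2 together 2 members rose and 0 fell, with a median of 0.113, where 1.87% of all genes rose. With the hepatocyte covariate 0 members rose and 0 fell, with a median of 0.101, but the median SE was 0.175 in place of 0.070 and 0.374% of all genes were called in place of 17.5%. With the Y-linked level as a covariate 14 rose and 3 fell, where 8.03% of all genes rose and 10.2% fell.

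Set against the ventricles, most of these transcripts were lower in mutant right atria. Of the 76 genes, 69 were lower in mutant atria, 1 was higher and 6 did not pass, where 16.7% of all genes were lower, 16% higher and 32.7% either. The median log2 ratio was -0.479, against -0.051 over all genes. In 73 genes every mutant atrium stood below every ventricle, as in 26.8% of all genes, and in 1 every mutant atrium stood above, as in 20.5%. Among large-subunit genes 46 of 49 were lower, and among small-subunit genes 22 of 26 were lower and 1 was higher.

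The largest difference was that of Mrpl14, at 9.14, 9.27 and 9.10 in mutant atria, against 10.43, 10.30 and 10.28 in ventricles. The mutants were all below the ventricles, by -1.17 ± 0.07 or 2.25-fold (adjusted p = 6.23e-06), while against control atria the ratio was -0.02 ± 0.07 (adjusted p = 0.862). Mrps18a was at 10.13, 10.17 and 10.04 in mutant atria, against 11.14, 11.29 and 11.31 in ventricles, a ratio of -1.13 ± 0.08 (adjusted p = 7.72e-06). Mrpl1 gave -1.04 ± 0.09 (adjusted p = 2.76e-05) and Mrpl37, a large-subunit protein specific to mitochondria, -0.94 ± 0.07 (adjusted p = 1.65e-05). Mrpl55, Mrps9, Mrps35 and Mrpl50 followed, with ratios between -0.88 and -0.85. For these genes the mutant atria lay far below the ventricles and near the control atria, with mutant over control ratios between -0.17 and 0.21, none of which passed.

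Mrps6 was the 1 gene higher in mutant atria, at 12.36, 11.50 and 12.39, against 10.87, 10.82 and 10.93 in ventricles. The groups did not overlap and the ratio was 1.21 ± 0.20 or 2.32-fold (adjusted p = 0.00133). Slc5a3 was higher too, by 1.83 ± 0.30 (adjusted p = 0.00131). The 6 genes that did not pass were Mrpl16, Mrpl17, Mrpl4, Mrps23, Mrps25 and Mrps34. Among them Mrps34 stood at 10.92, 11.29 and 11.19 in mutant atria, against 11.33, 11.41 and 11.43 in ventricles, a ratio of -0.26 ± 0.09 (adjusted p = 0.0586). Mrpl16 gave -0.16 ± 0.09 (adjusted p = 0.229), with overlapping arrays. A p that misses the threshold does not show equal levels. With the hepatocyte covariate 68 members were lower and 1 higher, where 16.6% of all genes were lower and 15.7% higher. Without control atria 1 and 2, which are in neither group compared here, the median over members stayed at -0.479. With the Y-linked covariate 65 were lower and 1 higher, with a median of -0.462, where 11.6% of all genes were lower.

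The ventricle and mutant ratios to control atria share the same control arrays, so no measure of their likeness is given and they are set side by side. Mrpl36 gave 0.52 in mutant atria and 1.03 in ventricles, Mrps34 gave 0.51 in mutant atria and 0.77 in ventricles, and Mrpl34 gave 0.46 in mutant atria and 0.88 in ventricles. Mrps18a gave 0.21 in mutant atria and 1.35 in ventricles, Mrpl14 gave -0.02 in mutant atria and 1.15 in ventricles, and Mrpl1 gave -0.02 in mutant atria and 1.03 in ventricles. The genes raised most in ventricles thus include some that passed in the mutants and some that did not.

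**Figure D4:**
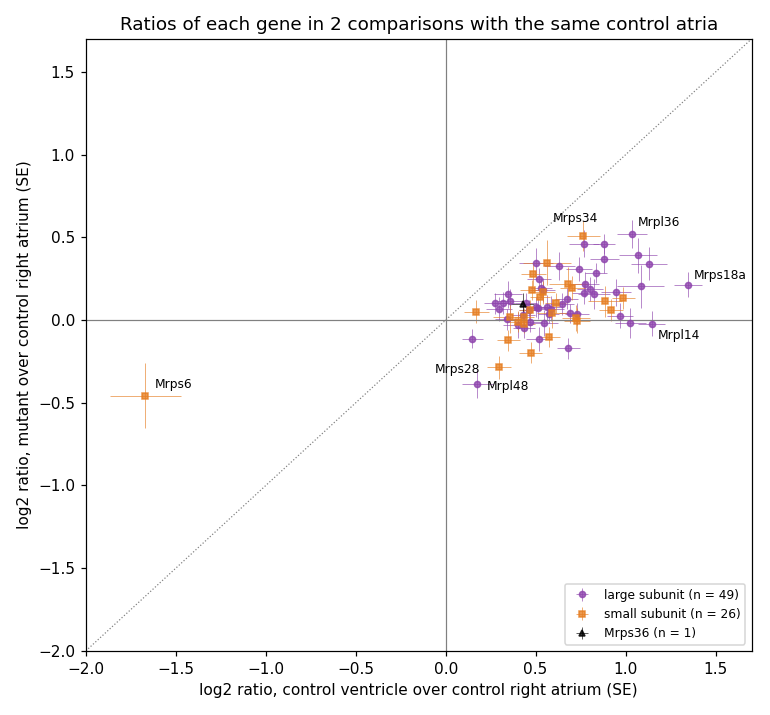
Log2 ratio ± SE of each gene for mutant over control right atria (vertical) against control ventricle over control right atria (horizontal), with the dotted diagonal marking equal ratios. Both axes use the same control arrays; Mrpl36 and Mrps34 stand at 0.52 and 0.51 on the vertical axis, and Mrps6 alone lies left of 0 on the horizontal axis.

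The partners of the mitochondrial ribosome were counted in the same fit. Over all 18193 genes 7.76% rose and 9.79% fell in mutant atria, and 29.2% rose and 23.6% fell in ventricles, both against control atria. The list counts below stand beside these shares. In mutant atria the lists of ribosome assembly, transfer RNA charging and mitochondrial DNA lay below both shares. Ribosomal proteins named otherwise were measured for 4 genes. In mutant over control atria Ptcd3, a small-subunit protein with RNA-binding repeats, rose by 0.25 ± 0.07 (adjusted p = 0.0392) and Chchd1, another small-subunit protein, fell by -0.22 ± 0.06 (adjusted p = 0.0365). In ventricles all 4 rose, with ratios of 0.94 for Ptcd3, 0.43 for the GTP-binding protein Dap3, 0.97 for Gadd45gip1 at the exit tunnel and 0.17 for Chchd1. All 4 were lower in mutant atria than in ventricles, as were 16.7% of all genes.

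Among 25 genes of ribosome assembly and ribosomal RNA modification 1 rose and 1 fell in mutant atria, and 17 rose and 0 fell in ventricles by limma. Mrm3, a ribosomal RNA methyltransferase, rose by 0.24 in mutant atria and 1.05 in ventricles, while Malsu1, the partner of Mrpl14, fell by -0.31 in mutant atria (adjusted p = 0.017). Fastkd2, which binds the large ribosomal RNA, gave 1.11 in ventricles. Among 15 translation factors 5 rose and 0 fell in mutant atria, and 13 rose and 0 fell in ventricles. The mutant rises included the peptide deformylase Pdf at 0.47 ± 0.08 (adjusted p = 0.0046), the elongation factor Gfm1 at 0.40 ± 0.10 (adjusted p = 0.0238) and Oxa1l, which inserts the new proteins into the membrane, at 0.34 ± 0.08 (adjusted p = 0.0162). Lrpprc, which stabilises mitochondrial messenger RNA, gave 1.01 in ventricles and 0.10 in mutant atria (adjusted p = 0.288).

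Of 19 genes that charge mitochondrial transfer RNA, 1 rose (Gatb, by 0.35) and 1 fell (Hars2, by -0.34) in mutant atria, and 17 rose and 0 fell in ventricles, with the tyrosine enzyme Yars2 at 1.16. Of 14 genes of mitochondrial DNA transcription and maintenance, 1 rose (Polrmt, the mitochondrial RNA polymerase, by 0.33) and 1 fell (Top1mt, the mitochondrial topoisomerase, by -0.78) in mutant atria, and 9 rose and 0 fell in ventricles. Tfam, which packs and transcribes mitochondrial DNA, gave -0.11 ± 0.07 in mutant atria (adjusted p = 0.324) and 0.37 ± 0.07 in ventricles (adjusted p = 0.00188).

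Of 12 regulators of mitochondrial biogenesis, 3 rose and 1 fell in mutant atria and 5 rose and 1 fell in ventricles. The coactivator Ppargc1b rose by 0.93 ± 0.15 in mutant atria (adjusted p = 0.00343) and by 1.22 ± 0.15 in ventricles. The oestrogen-related receptor Esrrb rose by 0.38 in mutant atria and 0.71 in ventricles, and Esrra gave 0.10 in mutant atria and 0.35 in ventricles, of which the ventricular value alone passed. Gabpb1, a subunit of the GABP factor, fell by -0.38 in mutant atria. Ppargc1a gave -0.13 ± 0.20 in mutant atria (adjusted p = 0.675) and 0.33 ± 0.20 in ventricles (adjusted p = 0.184), so this coactivator passed in neither.

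The cytosolic ribosome, which makes the mitoribosomal proteins, gave other counts. Of 46 cytosolic ribosomal protein genes 1 rose and 1 fell in mutant atria, and 1 rose and 27 fell in ventricles, with a median of -0.24. The 1 that rose in both was Rpl3l, the form of Rpl3 found in striated muscle, by 0.89 in mutant atria and 3.75 in ventricles. Nuclear-encoded subunits of the respiratory chain and ATP synthase, 80 genes, rose in 18 cases and fell in 1 in mutant atria, with a median of 0.13, and rose in 61 and fell in 4 in ventricles, with a median of 0.32. Of 23 Timm and Tomm import genes, 6 rose and 1 fell in mutant atria and 16 rose and 1 fell in ventricles. Timm10, a chaperone of the space between the mitochondrial membranes, had ratios of 1.06 in mutant atria and 1.52 in ventricles. The difference between these lists and the mitoribosomal genes was not tested.

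**Figure D5:**
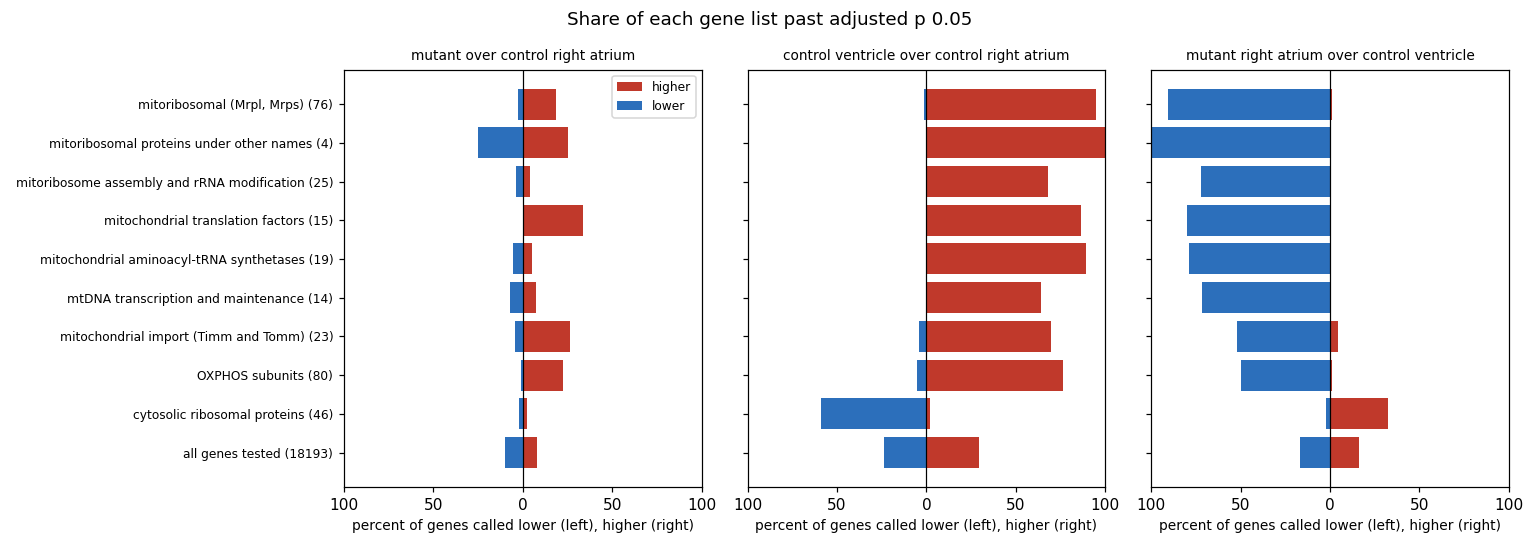
Percent of the genes of each list that were higher (right of 0) or lower (left of 0) at an adjusted p of 0.05, with the number of genes in brackets, for each comparison. In ventricles over control atria 94.7% of the mitoribosomal genes were higher, whereas 58.7% of the cytosolic ribosomal protein genes were lower.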

How the data were processed

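Total RNA of the 9 samples was labelled by 3' IVT and hybridised to Affymetrix mouse arrays. The deposited values are probe set intensities on a linear scale that the authors obtained with RMA, per the submitters' processing notes; its version and software are not given in the sources used here, and RMA corrects background and equalises the distributions of arrays. Log2 was taken with no further normalisation. Of 45101 probe sets, 64 controls, 932 with several genes and 9160 with no gene were left out, and the brightest probe set of each of 18193 genes was kept. The highest mean favours probe sets that detect their target well, and 34 members had only 1.

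A model with a mean per group was fitted to all 9 arrays with limma 3.58.1 in R 4.3.3 (6 residual and 3.48 prior degrees of freedom), with 2-sided tests and p-values adjusted by Benjamini-Hochberg across the 18193 genes (threshold 0.05). It was tested on simulated data. Figures and tables used Python 3.11.15, pandas 2.3.3 and matplotlib 3.10.9. Depth does not apply to arrays, and their number limits the precision.

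The members and lists were chosen with earlier results of these data known. Full statistics went to up to 8 rises and 8 falls per comparison, the 3 brightest and dimmest members, members opposite to most and those whose probe sets disagreed, and up to 3 genes per list; Mrpl3, Mrpl44, Mrps22, Mrpl12, Mrpl10, Mrpl58 and the genes that did not pass were added for their roles, and Slc5a3 after values were seen. Alternatives were quantile normalisation, centring on the median, a replicate block, a robust variance with a trend, removal of the dimmest 40% of genes, averaging all probe sets of a gene, testing each alone, a fit of the 2 groups compared, array weights, hepatocyte and Y-linked covariates, a 1.5-fold minimum, an adjusted p of 0.01 and leaving out each array; leaving out control atria 1 and 2 together was added after the data were seen.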

Additional observations from a re-analysis of the deposited data

How the results depend on the processing

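The direction of the 3 medians held under every alternative run. For ventricle over control atria, the median was 0.611 with quantile normalisation, 0.698 with median centring, 0.515 with the mean of all probe sets and 0.619 with the hepatocyte covariate. Median centring moved the median of all genes to 0.207 and quantile normalisation to 0.052, in place of 0.071, and relative to these the members stood at 0.492 with centring, as without it, and at 0.559. Centring also changed the split of all genes to 48.4% higher and 16.9% lower, in place of 29.2% and 23.6%. Without the dimmest 40% of genes 73 members were higher and 1 lower in ventricles, where 26.9% of the genes left were higher and 35.6% lower. In mutant atria against ventricles that setting gave 71 members lower and 1 higher, where 22.3% of the genes left were lower and 25.3% higher. For mutant atria over ventricles the median was -0.580 with centring, -0.409 with the mean of all probe sets. A minimum of 1.5-fold left 35 higher in ventricles, 22 lower in mutant atria than in ventricles, and 0 higher and 0 lower in mutant over control atria. Among all 18193 genes the same minimum left 1286 higher in ventricles and 734 lower in mutant atria than in ventricles. In mutant over control atria it left 426 higher and 558 lower. The hepatocyte covariate left 20 higher and 0 lower in ventricles, and 0 and 0 in mutant over control atria.

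For mutant over control atria, an adjusted p of 0.01 left 4 higher and 0 lower, and the share of all genes at that threshold was not counted. Quantile normalisation gave 19 higher and 2 lower, where 7.74% of all genes were higher and 7.98% lower. Array weights gave 13 higher and 4 lower, where 11.4% of all genes were higher and 13.5% lower. Leaving out control atria 1 and 2 gave a median over members of 0.113. Leaving out 1 array gave 5 to 12 higher and 0 to 3 lower there, where 4.29% to 7.41% of all genes were higher and 5.78% to 9.48% lower. It gave 72 to 73 higher in ventricles, where 22.3% to 28.6% of all genes were higher. In mutant atria against ventricles it gave 63 to 69 lower, where 12.2% to 16.9% of all genes were lower. Reversals of single genes were looked for only among the members picked for full statistics, without those added for their roles. Other members were not checked. Those found all concerned mutant over control ratios, near 0 except for that of Mrpl47 (0.39 in the model reported). None of the reversed values passed. Mrpl1 gave 0.045 with quantile normalisation, 0.017 with centring, 0.381 with the hepatocyte covariate, 0.147 without control atria 1 and 2, and -0.101 to 0.040 with 1 array left out, above 0 without mutant 1, control atrium 1 or control atrium 2. Mrpl39 gave 0.026 with centring and without control atria 1 and 2, 0.072 with the hepatocyte covariate, and -0.054 to 0.027 with 1 array left out, above 0 without mutant 2, mutant 3 or control atrium 1. Mrpl37 gave -0.021 with array weights, -0.115 with the hepatocyte covariate and -0.036 (without control atrium 1) to 0.080 with 1 array left out. Mrpl42 gave -0.008 with the hepatocyte covariate, and Mrpl47 -0.012 with the mean of its probe sets. The cause of these reversals was not tested.

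With the group mean of each gene taken off, same-numbered arrays of different groups correlated at -0.102 to 0.125. With 3 arrays per group such values cannot show whether same-numbered arrays share more than a number, so a replicate block was also fitted. With the replicate block 10 rose and 2 fell in mutant over control atria, where 6.47% of all genes rose and 8.39% fell. In ventricles 72 rose and 1 fell, where 27.8% of all genes rose and 22.8% fell. In mutant atria against ventricles 1 was higher and 68 lower, where 15.2% of all genes were higher and 15.4% lower. Mrpl45 (adjusted p = 0.0613) and Mrpl47 (adjusted p = 0.0618) lost their calls in limma for mutant over control atria. The number of arrays, 3 per group, limits the precision.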
